A study of Homo sapiens with 4 samples.

Results

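The genes described here code for the proteasome and for the proteins that build and regulate it. They were chosen by name, from the subunit and chaperone symbols of the human proteasome, with earlier results of these data known. Of the 18134 genes of the expression table, 44 were members. The cells were PC9, an established human lung adenocarcinoma line. They were infected with a lentivirus that carried either a short hairpin RNA against TPX2 (shTPX2) or a negative control hairpin (shNC), and stable lines were obtained by antibiotic selection. Poly(A) RNA of 2 shNC and 2 shTPX2 libraries was sequenced, all under 1 batch label. The sources used here do not say whether a line was 1 clone or whether the libraries came from separate cultures, so p-values measure only the spread between these samples.

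The proteasome degrades proteins that carry ubiquitin chains. Its 20S core is a barrel of stacked rings, with alpha subunits on the outside that gate the entry and beta subunits on the inside, of which PSMB5, PSMB6 and PSMB7 carry the active sites. The 19S cap recognises ubiquitin, removes it, and unfolds the substrate with a ring of ATPases, the PSMC proteins. Other caps (PSME1 to PSME4) can replace the 19S particle, PSMF1 is known as an inhibitor, and dedicated chaperones help to assemble core and cap. Lung cancer cells, like most dividing cells, express these genes at high levels.

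The libraries held 20906441 to 21972583 expected counts, and 14048 genes passed the filter on low counts, among them all 44 members. TPX2, the spindle assembly factor that the hairpin targets, was at 55.01 and 111.85 TPM (transcripts scaled by length and library) in shNC 1 and shNC 2 and at 43.35 and 43.77 TPM in shTPX2 1 and shTPX2 2. Both knockdown libraries were below both controls, and the controls differed more from each other than shNC 1 did from the knockdown. The log2 fold change of TPX2 was -0.81 (SE 0.32, adjusted p = 0.618), and it was -0.25 without shNC 2 and -1.22 without shNC 1. By limma voom TPX2 was called lower (log2 fold change of 0.3 or more in size, unadjusted p of 0.1 or less), a call lost without shNC 2. The epithelial genes EPCAM, CDH1, KRT8, KRT18, KRT19, KRT7 and EGFR were above 78 TPM in every library, while the lung lineage genes NKX2-1, SFTPB and NAPSA were at 1.67 TPM or less. Of 9 markers of leukocytes, endothelium and fibroblasts, PTPRC, CD3E, VWF, COL1A2 and DCN were at 0.69 TPM or less in every library. CD68 (126 to 220 TPM), PECAM1 (4.2 to 14.4 TPM) and COL1A1 (5.72 to 11.99 TPM) were detected and were not called. CDH5, which codes for an endothelial cadherin, was at 14.4 and 18.1 TPM in the controls and at 26.7 and 30.5 TPM in the knockdown (log2 fold change 0.94, SE 0.18, adjusted p = 0.439). CDH5 was called higher by limma voom (log2 fold change of 0.3 or more, unadjusted p of 0.1 or less). The 9 markers summed to 155 and 266 TPM in shNC and to 228 and 213 TPM in shTPX2, and their part in the results below was not tested.

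Most proteasome genes had a higher level in shTPX2 than in shNC, by small amounts. The log2 fold change was above 0 for 42 of the 44 genes (95.5%), against 48.9% of all tested genes. Its median was 0.31, which is 1.24-fold, with single values from -0.13 to 0.59, and the median over all tested genes was -0.0085. The study called a gene changed when its log fold change was 0.3 or more and its unadjusted p 0.1 or less, with no base of the logarithm given. These limits were applied here with limma voom, taking the base as 2 and the size in either direction. By these criteria 19 members (43.2%) were called higher, where 6.24% of all tested genes were, and 0 were called lower, where 7.99% were. The median edgeR SE was 0.168 over the members and 0.236 over all tested genes. The shares over all tested genes, here and below, are thus not matched to the members for precision. The members were read from the same libraries and are not replicates. With edgeR 9 members had an unadjusted p under 0.05 and a higher level (background 3.13%) and 0 had a lower level (background 4.9%), and DESeq2 gave 7 (background 3.13%) and 0 (background 4.36%). None of the 44 passed an adjusted p under 0.05 over all genes in edgeR, where the smallest was 0.579 and no gene of the table passed (0.0%), or in DESeq2, where 0.79% of all genes passed. With the limma p adjusted and held to 0.1, none of the 44 was called, where 0.00712% of all genes were. Where a single gene is given with an SE or an adjusted p, these are from edgeR, and some genes are given without them. The words "called higher" below mean the study's criteria.

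**Figure D1:**
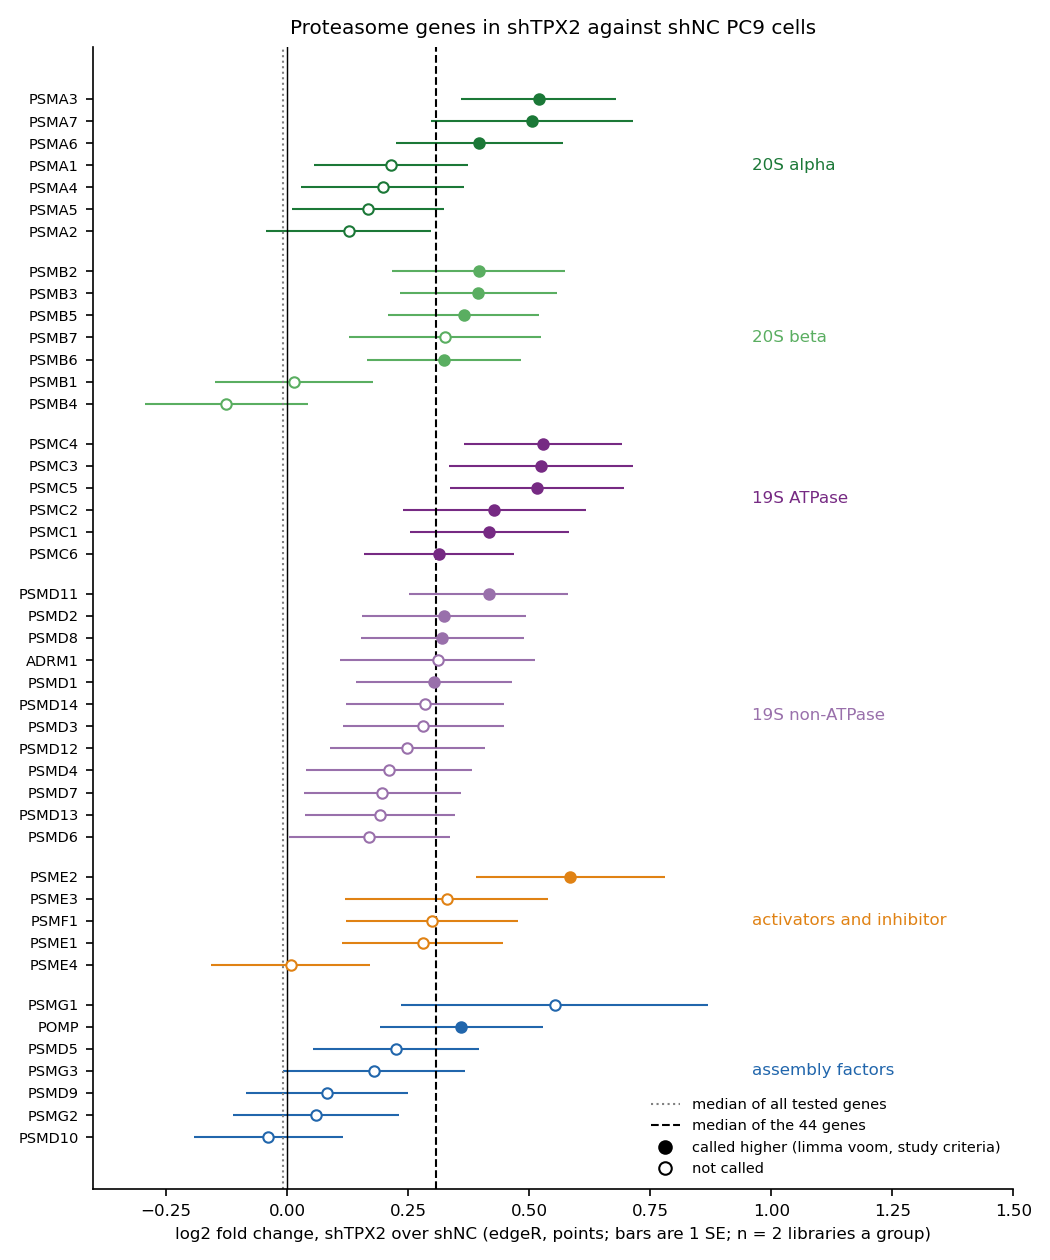
Log2 fold change of each of the 44 genes, shTPX2 over shNC, from edgeR (x axis), with bars of 1 SE and n = 2 libraries a group, sorted within 6 classes. Filled points are the 19 genes called higher by limma voom at the study's criteria. All points but those of PSMB4 and PSMD10 lie right of 0, and the SE is about as wide as the distance between many of the genes.

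In 37 of the 44 genes (84.1%) both shTPX2 libraries were above both shNC libraries in normalised counts (CPM, scaled with TMM factors). Of all tested genes 19.4% were placed this way, a background not matched for precision. No member had both shTPX2 libraries below both controls, where 20.2% of all genes did. The 7 genes whose groups overlapped were PSMA2, PSMB1, PSMB4, PSME4, PSMG2, PSMD9 and PSMD10. With 2 libraries a group, the smallest two-sided p of an exact permutation test on 1 gene is 0.333, so no such test can pass 0.05.

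**Figure D2:**
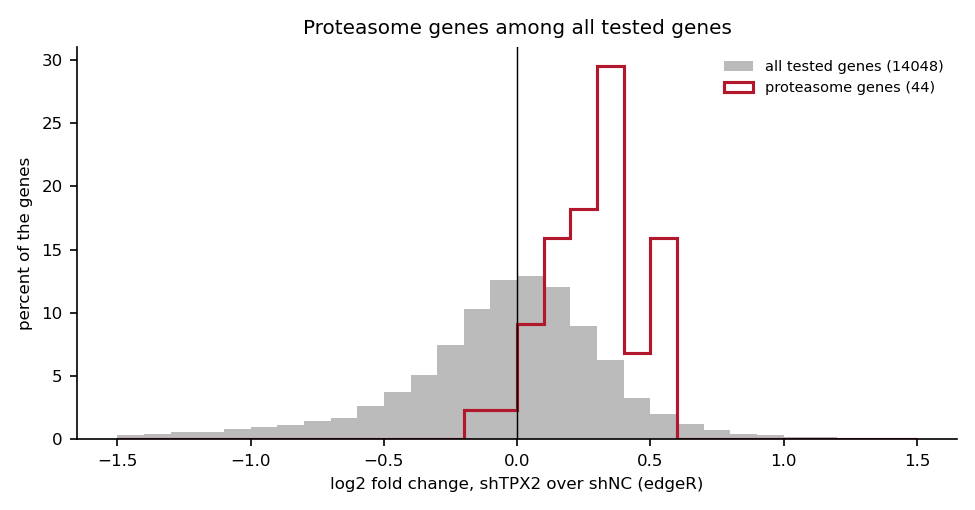
Distribution of the log2 fold change (x axis, edgeR, bins of 0.1) over all 14048 tested genes in grey and over the 44 proteasome genes in red, as percent of the genes in each set (y axis). Genes beyond -1.5 or 1.5 are not drawn. The proteasome genes lie between -0.13 and 0.59, inside the range of the other genes and mostly on its right side.

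The scale matters for differences this small. On the deposited TPM scale the median log2 ratio of the group means was -0.12 over all tested genes and 0.19 over the members, so the members stood 0.32 above the median gene, as they did with TMM factors. In TPM 38 members had a higher mean in shTPX2 (33.8% of all tested genes did), and PSMB1, PSMB4, PSME4, PSMG2, PSMD9 and PSMD10 had a lower one. Both shTPX2 libraries were above both controls in TPM for 26 members (10.7% of all tested genes), and below them for PSMB4 and PSMD10, where 30.3% of all tested genes lay below. Summed over the 44 genes, shNC 1 and shNC 2 held 6258 and 6039 TPM and the knockdown libraries 6968 and 7079 TPM, a mean of 6149 ± 155 against 7024 ± 78.4 (SD, n = 2). The ratio of these sums was 1.14 in TPM, 1.19 in FPKM and 1.24 in CPM with TMM factors.

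Of the 9 genes with an edgeR p under 0.05, 7 had a promoter in the RefSeq table (GRCh38.p14) whose 100 bases before the start touch no annotated gene. They are shown here because these genes had the smallest p of the 44, with every CCAAT box (the NF-Y core, or ATTGG where it lies on the other strand) in capitals. PSMA3 and PSMB3 hold a pair of CCAAT boxes each, and the stretches of PSMC1, PSMC3, PSMC4, PSMD11 and PSME2 hold none.
PSMA3 (chr14:58244743-58244842, plus strand): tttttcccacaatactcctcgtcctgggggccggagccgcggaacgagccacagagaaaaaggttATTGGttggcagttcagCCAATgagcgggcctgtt
PSMB3 (chr17:38752641-38752740, plus strand): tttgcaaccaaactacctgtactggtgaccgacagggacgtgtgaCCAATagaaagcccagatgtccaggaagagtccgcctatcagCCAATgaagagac
PSMC1 (chr14:90256453-90256552, plus strand): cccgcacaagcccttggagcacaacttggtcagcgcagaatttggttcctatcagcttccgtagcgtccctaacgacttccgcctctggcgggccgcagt
PSMC3 (chr11:47426440-47426539, minus strand): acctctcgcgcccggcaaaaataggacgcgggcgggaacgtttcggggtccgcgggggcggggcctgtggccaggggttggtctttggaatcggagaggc
PSMC4 (chr19:39971065-39971164, plus strand): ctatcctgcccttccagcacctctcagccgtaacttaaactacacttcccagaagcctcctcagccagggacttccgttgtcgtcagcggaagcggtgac
PSMD11 (chr17:32444410-32444509, plus strand): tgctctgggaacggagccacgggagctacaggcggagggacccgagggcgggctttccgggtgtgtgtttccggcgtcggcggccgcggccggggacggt
PSME2 (chr14:24146611-24146710, minus strand): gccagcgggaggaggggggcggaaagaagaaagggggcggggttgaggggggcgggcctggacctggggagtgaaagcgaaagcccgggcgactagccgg

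Promoters of 300 bases, 250 before and 50 after the start, were found for 38 of the 44 genes. The table lists 47 entries for these 38, and the first one listed was used for each gene, here and in the background, so the counts below hold for that choice. PSMA7, PSMB1, PSMB6, PSMB7, PSMD4 and PSMG3 had no entry. The letters CCGGAAG, a form of the site that ETS factors bind, were in 12 of the 38 (31.6%) on either strand. They were in 10.7% of all 27305 promoters and 18.5% of the 10938 promoters of tested genes. Shorter or other forms of the ETS site were not counted. CCGGAAG was in 0 of 6 alpha, 0 of 4 beta, 3 of 6 ATPase, 6 of 11 further cap, 1 of 5 activator or inhibitor and 2 of 6 assembly promoters. CCAAT was in 18 of 38 (47.4%), against 36.0% of the promoters of tested genes. The loose form TGANNNNGC of the antioxidant response element, which NFE2L1 and NFE2L2 bind with partners, was in 23 of 38 (60.5%, against 42.3%), and the strict form TGACTCAGC, which is also a match to the loose one, was in 0 (against 0.494%). The cyclic AMP response element TGACGTCA was in 0 of 38 (against 3.04%). These counts are matches of letters in 1 window, and no statement about binding follows from them. The 4 CCGGAAG matches that lie with 30 bases on each side before the start and outside every annotated gene were those of PSMC6, PSME4, POMP and PSMD9. They are shown with the match in capitals, as CTTCCGG where it is on the other strand.
PSMC6 (chr14:52707063-52707129, plus strand): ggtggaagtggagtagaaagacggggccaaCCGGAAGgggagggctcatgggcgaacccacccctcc
PSME4 (chr2:53971037-53971103, minus strand): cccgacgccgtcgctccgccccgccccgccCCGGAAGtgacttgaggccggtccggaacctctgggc
POMP (chr13:28659056-28659122, plus strand): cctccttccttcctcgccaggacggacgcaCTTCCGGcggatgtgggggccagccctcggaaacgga
PSMD9 (chr12:121888651-121888717, plus strand): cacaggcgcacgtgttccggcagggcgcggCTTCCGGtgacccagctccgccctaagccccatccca

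The alpha ring of the 20S core lay above 0 throughout. All 7 PSMA genes had a log2 fold change above 0, with a median of 0.21, and 3 of them (PSMA3, PSMA6 and PSMA7) were called higher. Of all tested genes 48.9% lay above 0 and 6.24% were called higher. PSMA3 was at 74.4 and 71.2 CPM in shNC and at 99.4 and 109 CPM in shTPX2. Its groups stood well apart (log2 fold change 0.52, SE 0.16, adjusted p = 0.579). PSMA7 was at 129 and 94.6 CPM against 169 and 149 CPM (0.51, SE 0.21, adjusted p = 0.621), with the lowest value in shNC 2; it was 0.29 without shNC 2 and 0.75 without shNC 1. PSMA2 had the largest p of the ring. It was at 60.6 and 70.0 CPM in shNC and 67.5 and 75.1 CPM in shTPX2, so its groups overlapped (0.13, SE 0.17, adjusted p = 0.877), and it ran from 0.029 without shNC 1 to 0.23 without shNC 2. In TPM the groups of PSMA1, PSMA2, PSMA4 and PSMA5 overlapped. Summed alpha levels were 1202 and 1187 TPM in the controls and 1415 and 1408 TPM in the knockdown.

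In the beta ring 5 genes had a log2 fold change of 0.32 to 0.40, and PSMB1 and PSMB4 had 0.015 and -0.13. Whether the genes of this ring differ from each other was not tested. Without shNC 2 PSMB7 was at 0.12 and PSMB1 at 0.076. For the catalytic subunits the log2 fold change was 0.36 (SE 0.16) for PSMB5, the chymotrypsin-like subunit and the main target of bortezomib, 0.32 (SE 0.16) for PSMB6, the caspase-like subunit, and 0.33 (SE 0.20) for PSMB7, the trypsin-like subunit. PSMB5 was at 83.2 and 80.7 CPM in shNC and at 103 and 108 CPM in shTPX2 (adjusted p = 0.634). PSMB6 was at 83.3 and 77.5 CPM against 104 and 97.8 CPM (adjusted p = 0.673). PSMB7 was at 138 and 103 CPM against 155 and 146 CPM (adjusted p = 0.728). Leaving out 1 library gave 0.33 to 0.40 for PSMB5 and 0.27 to 0.38 for PSMB6, and PSMB7 went from 0.12 without shNC 2 to 0.55 without shNC 1. PSMB5 and PSMB6 were called higher and PSMB7 was not, with 1 low control, shNC 2, and groups that did not overlap. PSMB3, a structural subunit, was at 75.8 and 81.3 CPM in shNC and 97.6 and 109 CPM in shTPX2 (0.40, SE 0.16, adjusted p = 0.621), and PSMB2 was also called (0.40, SE 0.18).

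PSMB4 and PSMB1 are both structural beta subunits. PSMB4 was at 158 and 142 CPM in shNC and at 131 and 144 CPM in shTPX2, which is the lowest log2 fold change of all 44 genes (-0.13, SE 0.17, adjusted p = 0.877), from -0.20 without shNC 2 to -0.049 without shNC 1. In TPM its values were 364.82 and 339.17 against 277.71 and 315.46, with both knockdown libraries lower. PSMB1 was at 85.3 and 93.7 CPM against 86.0 and 94.9 CPM (0.015, SE 0.16, adjusted p = 0.989), and its groups overlapped on both scales. The median of the beta ring was 0.33, with 4 of 7 called higher, where 6.24% of all tested genes were.

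The 6 ATPases of the cap were the class with the largest median, 0.47, and all 6 were called higher. PSMC4 was at 109 and 98.3 CPM in shNC and at 145 and 154 CPM in shTPX2 (log2 fold change 0.53, SE 0.16, adjusted p = 0.579). This is 1.44-fold. PSMC5 was at 65.6 and 52.2 CPM against 85.1 and 83.3 CPM (0.52, SE 0.18, adjusted p = 0.592). PSMC3 was at 136 and 105 CPM against 172 and 176 CPM (0.52, SE 0.19, adjusted p = 0.597). In both of these genes shNC 2 was the lowest library. PSMC1 was at 57.4 and 52.2 CPM against 69.4 and 77.0 CPM (0.42, SE 0.16, adjusted p = 0.619). PSMC6 had the largest p of the ring, with 60.9 and 58.4 CPM against 72.6 and 75.7 CPM (0.31, SE 0.16, adjusted p = 0.678), and PSMC2 had a value of 0.43 (SE 0.19). Without shNC 2 PSMC2 was at 0.24 and PSMC3 at 0.34, and without shNC 1 they were at 0.63 and 0.73. Summed ATPase levels were 636.87 and 548.17 TPM in the controls and 734.88 and 781.97 TPM in the knockdown, a ratio of 1.28. No gene of this class overlapped between the groups, where 19.4% of all tested genes were apart in this direction and 6.24% were called higher.

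The 12 further cap genes, the scaffold and ubiquitin-handling subunits, were all higher, with no overlap of the groups in CPM, and 4 were called (PSMD1, PSMD2, PSMD8 and PSMD11), against 19.4% and 6.24% of all tested genes. Their median log2 fold change was 0.28, from 0.17 to 0.42. PSMD11, a lid subunit, was at 76.2 and 65.8 CPM in shNC and at 94.8 and 94.6 CPM in shTPX2 (0.42, SE 0.16, adjusted p = 0.619). PSMD2, a large scaffold subunit of the base, was at 348 and 355 CPM against 451 and 428 CPM (0.32, SE 0.17, adjusted p = 0.689). PSMD6 had the largest p, with 37.1 and 33.7 CPM against 38.7 and 40.9 CPM (0.17, SE 0.17, adjusted p = 0.82), a difference of the size of its error, and was at 0.094 without shNC 2. The ubiquitin receptors PSMD4 (0.21, SE 0.17) and ADRM1 (0.31, SE 0.20) and the deubiquitinase PSMD14 (0.28, SE 0.16) were higher and were not called. In TPM the groups of PSMD4, PSMD6 and ADRM1 overlapped. Without shNC 2 PSMD4 was at 0.074 and ADRM1 at 0.10, and without shNC 1 they were at 0.35 and 0.54.

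Among the alternative caps, PSME2 had the largest log2 fold change of all 44 genes (0.59, SE 0.19, adjusted p = 0.579). With PSME1 it forms the 11S activator, which interferon is known to raise. PSME2 was at 124 and 156 CPM in shNC and at 226 and 195 CPM in shTPX2. PSME1 was at 198.7 and 200.2 CPM against 252 and 232 CPM (0.28, SE 0.17, adjusted p = 0.725) and was not called, although its controls were nearly equal and its groups did not overlap. PSME3, the nuclear activator, had a value of 0.33 (SE 0.21) and the inhibitor PSMF1 one of 0.30 (SE 0.18). PSME3 was at 0.11 without shNC 2 and at 0.58 without shNC 1, and PSMF1 at 0.20 without either shNC 2 or shTPX2 2 and at 0.39 without either of the others. PSME4, a large nuclear cap protein, was at 66.3 and 63.0 CPM in shNC and at 60.4 and 69.5 CPM in shTPX2, with the shTPX2 libraries on both sides of the controls (0.0073, SE 0.16, adjusted p = 0.992).

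The assembly factors were the class with the smallest median, 0.18, and 1 of 7 (14.3%) was called higher, where 6.24% of all tested genes were. POMP, which the beta ring needs to mature, was at 79.0 and 69.0 CPM in shNC and at 90.1 and 99.9 CPM in shTPX2 (0.36, SE 0.17, adjusted p = 0.657). PSMG1, an alpha ring chaperone, had the lowest counts of the 44 genes. It was at 11.4 and 7.39 CPM against 16.1 and 11.5 CPM, with shNC 1 and shTPX2 2 nearly equal and values from 0.26 without shNC 2 to 0.90 without shNC 1 (0.55, SE 0.32, adjusted p = 0.713). PSMD10, a chaperone of the ATPase ring also known as gankyrin, was at 68.3 and 65.0 CPM against 65.1 and 64.7 CPM (-0.038, SE 0.15, adjusted p = 0.967). PSMG2 (0.059, SE 0.17) and PSMD9 (0.082, SE 0.17) were also near 0 with overlapping groups, and PSMG3 (0.18, SE 0.19) and PSMD5 (0.23, SE 0.17) were not called. Over the leave-outs PSMG3 ran from 0.051 (without shNC 1) to 0.31, PSMD5 from 0.097 (without shNC 2) to 0.36, PSMD9 from 0.039 (without shNC 1) to 0.12 and PSMD10 from -0.081 (without shNC 2) to -0.0018. The summed level of the assembly factors was 407.31 and 396.85 TPM in the controls and 402.96 and 435.37 TPM in the knockdown, so their groups overlapped in TPM, unlike those of the other classes. Whether the classes differ from each other was not tested.

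**Figure D3:**
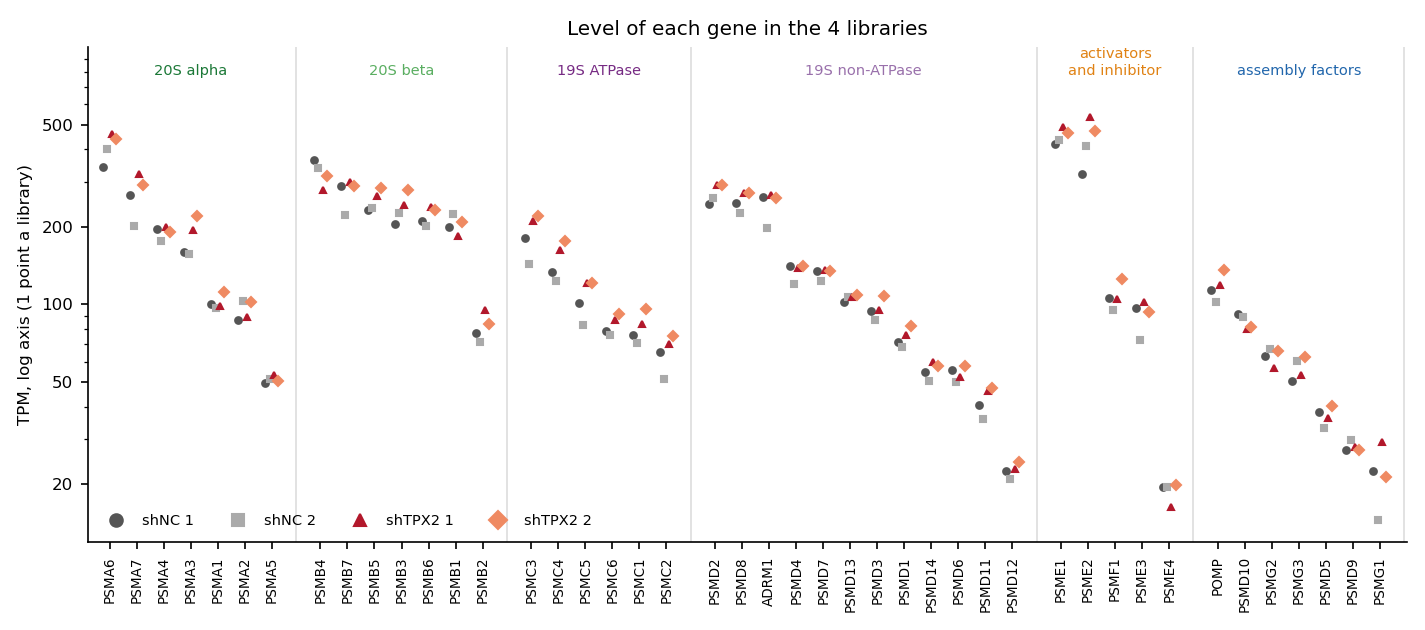
Level of each of the 44 genes in TPM (y axis, log scale), with 1 point for each of the 4 libraries, sorted by mean level within 6 classes. The genes differ in level far more than the groups do: PSME4 lies near 20 TPM and PSME1 and PSME2 lie above 300 TPM in every library.

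Levels per length differed widely between subunits that sit in the same complex. In TPM, the highest of the 14 core genes was 7.37 to 8.70 times the lowest within a library. PSMA5 was lowest in all 4 libraries (49.47 to 53.07 TPM), and PSMA6 was highest in 3 of them and PSMB4 in shNC 1. These ranks rest on the lengths used for TPM, whose annotation is not given. The counts of PSMA5 were also fractional in all 4 libraries. Among the ATPases PSMC3 was highest (143.9 to 220.85 TPM) and PSMC2 lowest (51.55 to 75.15 TPM) in every library. Over all 44 genes the mean of the 4 libraries ran from 18.8 TPM for PSME4 to 452 TPM for PSME1. The summed core level was 1.320 and 1.430 times the summed cap level in shNC and 1.315 and 1.310 times in shTPX2. Both knockdown ratios were below both controls. Their distance from shNC 1 was smaller than the difference between the controls, and their distance from shNC 2 was slightly larger than it.

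The controls were not alike for these genes. From shNC 1 to shNC 2 the median difference over the 44 genes was -0.14 in log2 CPM, and 12 of 44 were higher in shNC 2, while the median over all tested genes was 0.00375. The shTPX2 libraries differed by a median of 0.025, with 23 of 44 higher in shTPX2 2. The 4 comparisons of 1 shTPX2 with 1 shNC library gave medians of 0.22 and 0.23 against shNC 1 and 0.35 and 0.35 against shNC 2, with 39 to 42 of the 44 genes higher. Every between-group median was thus larger than both within-group medians in size. For the ATPases all 6 were lower in shNC 2 than in shNC 1 (median -0.24), and the medians between groups were 0.30 and 0.35 against shNC 1 and 0.59 and 0.65 against shNC 2. The level of TPX2 moved the other way between the controls, since shNC 2 had the higher one.

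**Figure D4:**
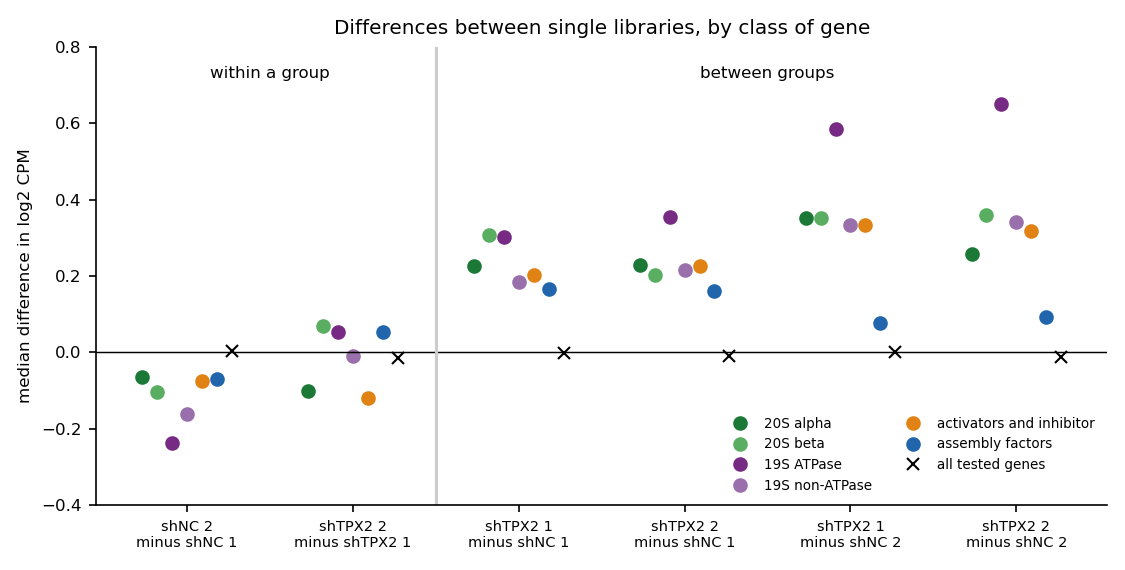
Median difference in log2 CPM between pairs of single libraries (x axis), within a group on the left and between groups on the right, for 6 classes of proteasome genes and for all tested genes (crosses). The crosses stay near 0 in every pair, all classes are below 0 for shNC 2 minus shNC 1, and all are above 0 in the 4 pairs between groups.

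The calls depended on single libraries. Of the 19 genes called higher, 14 were still called without shNC 1, 5 without shNC 2 (PSMA3, PSMA6, PSMB3, PSMC4 and PSME2), 6 without shTPX2 1 (PSMA3, PSMB3, PSMC1, PSMC3, PSMC4 and PSMC5) and 6 without shTPX2 2 (PSMA7, PSMB2, PSMC3, PSMC4, PSMC5 and PSME2). Without shNC 1 the genes PSMA6, PSMB3, PSMC6, PSMD1 and PSMD2 lost their call, and PSMB7, ADRM1, PSME3 and PSMG1 gained one. PSMG1 also gained one without shTPX2 2. PSMC4 was the 1 gene that kept its call whichever library was left out. The share of all tested genes called higher in these fits was 10.6% without shNC 1, 6.05% without shNC 2, 4.79% without shTPX2 1 and 3.61% without shTPX2 2. The genes at an edgeR p under 0.05 numbered 12 without shNC 1, 1 without shNC 2, 2 without shTPX2 1 and 1 without shTPX2 2, where 6.34%, 3.66%, 2.53% and 1.57% of all tested genes were at this level and higher. The median log2 fold change of the 44 genes stayed above 0 throughout, from 0.23 without shNC 2 to 0.36 without shNC 1.

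Reads of some members can be shared with other genes. In 32 members the deposited count was whole in all libraries, and in 12 it was fractional in at least 1, which an estimator gives when it divides reads. The median log2 fold change was 0.31 in the 32 and 0.28 in the 12. RefSeq lists 53 pseudogenes of 22 members, none of which has a row in the table. Another gene of the table overlaps 6 members (PSMC1, PSMC2, PSMC5, PSMD1, PSMG2 and PSMD10), so their single values may be uncertain. Counts were fractional in PSMC1, PSMC2 and PSMC5 and whole in PSMD1, PSMG2 and PSMD10, and the effect of the overlaps was not tested.

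Around the complex, a list of 39 genes of the ubiquitin and proteasome pathway was examined. Of these 37 were tested, and 26 (70.3%) lay above 0 and 11 below, where 48.9% of all tested genes lay above 0. Their median log2 fold change was 0.14, and 5 were called higher (13.5%, background 6.24%) and 0 lower (background 7.99%). PSMB11, the thymus core subunit, had 0 counts in all libraries, and PSMA8 was not matched. Among the called genes were UFD1 and VCP, which extract ubiquitinated proteins from complexes and membranes, the autophagy receptor SQSTM1, and the immunoproteasome subunit PSMB10. UFD1 was at 45.2 and 35.4 CPM in shNC and 54.1 and 64.1 CPM in shTPX2 (0.55, SE 0.20, adjusted p = 0.597). VCP was at 239 and 214.5 CPM against 281 and 333 CPM (0.44, SE 0.18, adjusted p = 0.626). SQSTM1 overlapped between the groups, with 1642 and 719 CPM against 1621 and 2579 CPM, although it was called. Without shNC 2 none of these 4 kept its call, and neither did UFD1, VCP and SQSTM1 without shTPX2 2 or PSMB10 without shTPX2 1. SQSTM1 ranged from 0.35 without shNC 2 to 1.55 without shNC 1.

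Of the 3 immunoproteasome subunits, PSMB10 was called higher and PSMB8 and PSMB9 were not, and whether they differ from each other was not tested. PSMB8 was at 53.0 and 64.0 CPM in shNC and 60.6 and 79.2 CPM in shTPX2 (0.26, SE 0.20, adjusted p = 0.781), with 0.050 without shTPX2 2 and 0.44 without shTPX2 1. PSMB9 was at 13.6 and 22.8 CPM against 19.5 and 18.5 CPM (0.063, SE 0.29, adjusted p = 0.968), with both shTPX2 libraries between the controls. PSMB10 was at 24.96 and 21.7 CPM against 34.6 and 28.5 CPM (0.43, SE 0.20, adjusted p = 0.653), and at 0.29 without shTPX2 1. It was the 1 of the 3 with groups apart, where 19.4% of all tested genes were apart in this direction. SEM1, the small lid subunit, was at 78.9 and 91.7 CPM against 101 and 103 CPM (0.25, SE 0.17, adjusted p = 0.742), and at 0.15 without shNC 1. NFE2L1, the transcription factor known to raise proteasome genes when proteolysis is blocked, was at 236 and 218 CPM against 260 and 186 CPM (-0.026, SE 0.21, adjusted p = 0.983), with the shTPX2 libraries on both sides of the controls. NFE2L2 had a log2 fold change of 0.078 (SE 0.16), and 0.038 without shNC 2. USP14, a deubiquitinase that sits on the cap, was at 70.0 and 59.3 CPM against 71.0 and 63.0 CPM (0.052, SE 0.17, adjusted p = 0.959).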

How the data were processed

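RNA of 4 PC9 libraries (2 shNC, 2 shTPX2) was measured by poly(A) RNA-seq. According to the paper's methods, the authors used SOAPnuke for read cleaning, HISAT2/Bowtie2 for alignment and RSEM or StringTie for quantification. The submitters' processing notes name HISAT2, featureCounts, DESeq2 and GRCh38, and the annotation and strand setting are not given in the sources used here. Expected counts of each gene were deposited per library, with no normalization for depth. The authors also deposited FPKM values, scaled by length and depth, and TPM values, scaled so that libraries have equal totals. Columns of group averages were used in no test.

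Expected counts were rounded to 0 decimals and filtered with filterByExpr. The main test was edgeR 4.0.16 (quasi-likelihood, TMM factors, Benjamini-Hochberg adjustment over 14048 genes), beside limma 3.58.1 voom at the study's criteria and DESeq2 1.42.0, in R 4.3.3. The scripts were tested on simulated counts. The common dispersion was 0.0485, so the spread between libraries limits the precision more than the depth. Alternatives were other scalings, filters, tools, a replicate block and leaving out each library.

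The members and the gene lists were chosen with earlier results of these data known. Values by library are given for PSMB5, PSMB6 and PSMB7, for the 2 smallest and the largest p of each class, for members below 0 or at an edgeR p under 0.05, for those of highest and lowest TPM, for 7 genes of the wider list (PSMB8, PSMB9, PSMB10, SEM1, NFE2L1, VCP and USP14) and UFD1, which had its smallest p. A further gene of the wider list is not reported here. Gene positions and promoters are from RefSeq (GRCh38.p14), matched by gene number or symbol. SQSTM1 was added after its values were seen. Protein sequences were not used here.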

Additional observations from a re-analysis of the deposited data

Results flagged for a closer look

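The deposited table also holds group averages, which entered no test. For 40 of the 44 members the shTPX2 average was the higher one, against 40.3% of all tested genes, and PSMA5, PSMB4, PSMD9 and PSMD10 were lower. The median ratio of the authors' mean TPM was 1.13 over the members and 0.949 over all tested genes, and the summed means were 7111 TPM in shNC and 8095 TPM in shTPX2. The direction was that of the 2 libraries in TPM for 40 of the 44 genes. The averages are not the means of the 2 libraries given here: they were equal within 0.01 counts in 2.8% of the genes for shNC and 3.34% for shTPX2. The authors' mean TPM of TPX2 was 138 in shNC and 64.5 in shTPX2, above both libraries of each group, and other libraries behind the averages were not analysed here. Multiplied by 3, the shNC averages of counts were multiples of 0.01 (within 1e-05) in 99.4% of the genes, and multiplied by 4, the shTPX2 averages were in 100% of them. The averages may include the libraries analysed here, so the shared directions are not independent support. The result was singled out because it lies in columns outside the main measurement, and the difference was not tested.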

How the results depend on the processing

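Over the 10 alternative count fits (edgeR and DESeq2), 41 of the 44 proteasome genes kept their direction, and 9 of 440 values changed sign; by mean TPM PSMB1, PSME4, PSMG2 and PSMD9 turned lower. Scaling by library size only moved the median of all genes to -0.078; 11 members were then called by limma (4.11% of all genes, against 6.24%) and 5 by edgeR (2.05%, against 3.13%), and the medians were 0.24 for all members, 0.15 for alpha, 0.22 for further cap genes, 0.23 for activators and inhibitor and 0.11 for assembly factors. The adjusted limma criterion left 0 (0.00712% of all genes). Leaving out 1 library gave 5 to 18 limma calls (3.61% to 10.6% of all genes), 1 to 12 edgeR calls (1.57% to 6.34%), and medians of 0.23 to 0.36 for all members, 0.23 to 0.30 for alpha, 0.34 to 0.62 for ATPases, 0.20 to 0.36 for further cap genes, 0.20 to 0.39 for activators and inhibitor and 0.051 to 0.21 for assembly factors. In each leave-out the lone library of a group is assumed to vary like the other group. The summed ratio of 1.14 in TPM was 1.24 in CPM and 1.19 in FPKM.

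With library size only PSMB1 was at -0.056, PSME4 at -0.060, PSMG2 at -0.011, PSMB9 at -0.017 and USP14 at -0.016. With at least 10 counts in every library PSME4 was at -0.0026. Over the 4 leave-outs PSMB1 ran from -0.058 (without shTPX2 2; -0.050 without shNC 1) to 0.083, PSME4 from -0.097 (without shTPX2 2; -0.037 without shNC 2) to 0.10, PSMG2 from -0.019 (without shTPX2 2) to 0.13 and PSMB9 from -0.26 (without shNC 1) to 0.48. NFE2L1 ran from -0.29 to 0.20 (without shTPX2 2; 0.034 without shNC 1), and USP14 from -0.071 (without shNC 2; -0.036 without shTPX2 1) to 0.18. The cause was not tested.

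The sources do not say whether same-numbered libraries belong together; their deviations from the group means correlated at 0.18 over genes. With the replicate block limma called 23 members (7.72% of all genes) and edgeR 11 (4.15%), with a median of 0.31. Quantile normalization gave 13 limma calls (6.4% of all genes). Counted by group mean, an alternative chosen after seeing the data, 38 members were higher in TPM and 40 in the authors' means (where PSMA5 and PSMD9 turned lower), against 42 with edgeR.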

Other observations

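The 44 genes lie on 18 chromosomes, with 7 each on chromosomes 14 and 17. The neighbours PSME1 and PSME2 lie 4402 bases apart on chromosome 14 (GRCh38.p14, RefSeq). From shNC 1 to shNC 2 PSME2 went from 320.33 to 413.97 TPM and PSME1 from 419.4 to 435.32 TPM.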
